A study of Homo sapiens with 14 samples.

Results

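The regions described here are the H3K27me3 peaks that were called in EED knockdown cells and met no H3K27me3 peak of the control cells. They were chosen by comparing the 2 deposited H3K27me3 peak lists: a knockdown peak that shared no base with a control peak is called new, and a knockdown peak that shared at least 1 base with a control peak is called kept. Of the 4205 knockdown peaks, 2843 were new (67.6%) and 1362 were kept. The control list held 35368 peaks, so the new peaks arose in a list that was much shorter than the control list. Lengths, heights and distances of H3K27me3 peaks were therefore fixed in part by this choice and are given as a description, without a test.

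H3K27me3, histone H3 trimethylated at lysine 27, is the mark written by Polycomb repressive complex 2 (PRC2), and EED is the PRC2 subunit that binds the mark and stimulates the EZH2 enzyme. Polycomb repressive complex 1 (PRC1) holds the E3 ligases RING1A and RING1B, which ubiquitinate histone H2A (uH2A), and its canonical forms contain CBX proteins that bind H3K27me3 together with BMI1 or a related PCGF protein. The mark is best known from broad domains over silent developmental genes.

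The cells were DU145, an established human prostate cancer line. The knockdown cells carried a stable EED knockdown named sh3, and the control cells carried a Scramble construct. Both were selected with puromycin, and the sources used here do not state how much EED was left in the knockdown cells. Chromatin of each was precipitated with 7 antibodies, against H3K27me3, BMI1, RING1A, RING1B, EED and uH2A (a rabbit and a mouse antibody), and sequenced as 14 libraries, 1 for each antibody in each cell line. With 1 library a group no difference between the cell lines has a replicate check, and no p-value is given. Intervals in brackets are 95% intervals (Clopper-Pearson for a share, Newcombe for a difference). They cover counting error only and treat peaks as independent, although neighbouring peaks share sequence, libraries and place.

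Facts of the libraries that touch the results are these. Every antibody had fewer peaks in knockdown than in control cells. The counts were 1372 against 13082 for EED and 11327 against 27077 for the rabbit uH2A antibody. In proportion RING1A fell furthest, to 4072 against 56011. A peak list does not measure the amount of EED protein, so it is no direct check of the knockdown. Read depths are not in the files and are unknown. The libraries formed 2 sets with different culture descriptions and different ways of writing chromosomes: EED and both uH2A antibodies in one set, and H3K27me3, BMI1, RING1A and RING1B in the other. Which set an antibody belongs to and the antibody itself cannot be told apart. In the second set every peak on chromosomes 22, X and Y was listed with a height of 0, and no other peak was. Heights are therefore given for chromosomes 1 to 21 only, which held 2393 of the new peaks and 1137 of the kept peaks. Positions are in hg19.

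New peaks were short and low. Their median length was 150 bp (quartiles 100 and 200), against 225 bp for kept peaks (quartiles 150 and 350) and 200 bp for the control list (quartiles 125 and 300). Peak lengths came in steps of 25 bp, and 487 new peaks had the shortest length in the list, 75 bp. That was 17.1% of new peaks, against 7.20% of kept peaks. At the other end, 3 new peaks reached 1 kb (0.106%), against 42 kept peaks (3.08%) and 1486 control peaks (4.20%). Broad H3K27me3 domains were thus almost absent among the new peaks as called.

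Height, the peak caller's read signal at a peak, had a median of 57.5 in new peaks (quartiles 49.5 and 70.0) and 84.9 in kept peaks (quartiles 59.0 and 169). Of the tallest 10% of the knockdown list, 47 peaks were new, or 1.96% of the new peaks with a height, against 306 kept peaks (26.9%). Height exceeded 10 times the list median in 5 new and 119 kept peaks. The heights of new and kept peaks nevertheless overlapped, since 39.6% of new peaks and 71.8% of kept peaks were above the median of the knockdown list.

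**Figure D1:**
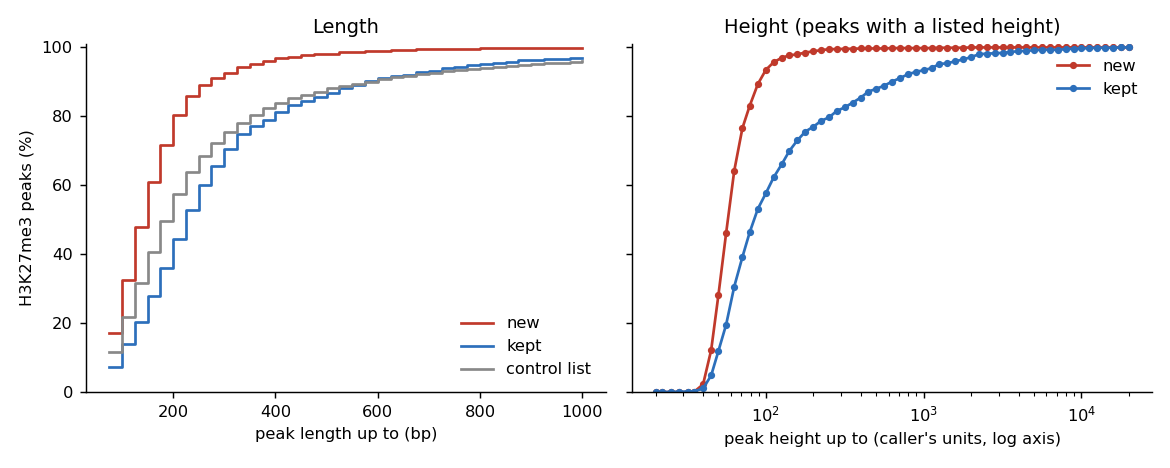
Cumulative share of H3K27me3 peaks (vertical axis, %) up to a given length in bp (left) and up to a given height in the caller's units on a log axis (right). New knockdown peaks are red, kept knockdown peaks blue and the control list grey; the new peaks gather at short lengths and low heights, with medians of 150 bp and 57.5, against 225 bp and 84.9 for kept peaks.

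The 5 tallest new peaks were exceptions in height. The tallest, chr10:42392626-42392700, was 75 bp long with a height of 3187, and a control H3K27me3 peak of height 716 ended 25 bp before it. The next had heights of 1916 (chr18:109201-109525), 1592 (chr10:42384251-42384575), 1141 (chr16:46386351-46386675) and 1028 (chr17:22261376-22261700). All 5 lay between 25 and 325 bp from a control H3K27me3 peak, and each met a knockdown RING1B peak. These were thus places beside existing control peaks, whose heights ran from 106 to 4149.9 in the control list.

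The longest new peaks looked different. The 5 longest ran from 925 to 1425 bp with heights of 81.5 to 129, and each met peaks of at least 3 other antibodies in both cell lines. The longest, chr5:34190376-34191800, was 1425 bp long, lay 2.23 kb from a control H3K27me3 peak, and met peaks of 5 of the other 6 antibodies in knockdown cells and of all 6 in control cells. A pair of its neighbours, chr5:34180176-34181275 and chr5:34192651-34193575, were also among the 5 longest. Heights from different libraries are not on a common scale, so those set side by side here and below do not measure a change. On the BMI1 peaks over the longest new peak, height was 157 in knockdown cells and 315 in control cells. The RING1B peaks there had heights of 33.3 in knockdown cells and 165 in control cells.

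Most new peaks were not far from older H3K27me3. The gap from a new peak to the nearest control H3K27me3 peak had a median of 10.8 kb, with quartiles at 1.95 and 62.0 kb and a largest value of 4.35 Mb. Within 1 kb lay 493 new peaks (17.3%), within 10 kb 1385 (48.7%), and within 100 kb 2292 (80.6%). Another 551 (19.4%) were more than 100 kb away, and 36 (1.27%) more than 1 Mb.

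Few members stood close to the limit of the rule. Just 10 new peaks touched a control peak end to end without sharing a base, and 18 had a gap of 25 bp or less (0.633%). Across the limit, 17 kept peaks shared no more than 25 bp with a control peak (1.25%). The tallest just inside were chr16:33942801-33942975 (height 70.9) and chr15:20849376-20849475 (height 64.4), which each adjoined a control peak. The tallest just outside were chr14:47846576-47846800 (height 87.5) and chr15:21903976-21904300 (height 80.0), which each shared 25 bp with a control peak. These 4 peaks show the limit of the rule, and all the peaks near it were not compared in height.

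Of the 36 new peaks more than 1 Mb from control H3K27me3, 27 met a knockdown peak of another antibody and 7 met no peak of another antibody in either cell line. Of the 36, 5 lay on X and 4 on Y, where no height was listed. The tallest of the others, chr2:5779976-5780050, had a height of 78.9 and was among the 7 that met no other antibody. The next, chr5:69515676-69515925 with a height of 76.0, met knockdown peaks of BMI1, RING1A and RING1B and control peaks of BMI1 and RING1B. Remote new peaks therefore included places with and without PRC1 peaks.

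The other antibodies were not used to choose the new peaks, so their overlap is a separate readout, although it comes from the same cells. New peaks lay mainly on PRC1. Knockdown BMI1 peaks met 1888 new peaks, 66.4% [64.6 to 68.1], against 84.2% of kept peaks [82.2 to 86.1] and 72.2% of all knockdown H3K27me3 peaks. Knockdown RING1A peaks met 47.3% of new [45.5 to 49.2] and 67.6% of kept peaks [65.1 to 70.1], with 53.9% over all. Both PRC1 subunits were therefore less frequent on new than on kept peaks, by 17.8 points for BMI1 [-20.3 to -15.1 as new minus kept] and 20.3 points for RING1A [-23.4 to -17.2].

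RING1B showed the widest gap between the classes in knockdown cells. Its knockdown peaks met 473 new peaks, 16.6% [15.3 to 18.1], against 834 kept peaks, 61.2% [58.6 to 63.8], and 31.1% of all knockdown H3K27me3 peaks. The difference was -44.6 points [-47.5 to -41.6]. All 3 PRC1 subunits were called together in knockdown cells on 265 new peaks (9.32%) and 569 kept peaks (41.8%).

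The PRC2 subunit EED and the uH2A mark were found on few peaks of either class. Knockdown EED peaks met 7.70% of new and 11.2% of kept peaks (8.82% of all), a difference of -3.46 points [-5.46 to -1.58]. The rabbit uH2A antibody met 6.68% of new and 10.6% of kept peaks (7.97% of all), and the mouse uH2A antibody 7.49% of new and 9.77% of kept peaks (8.23% of all). These 3 antibodies form the other library set, and the low shares of these antibodies and their library set cannot be told apart.

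The same places were then asked about in control cells, where by definition no H3K27me3 peak was called. Control BMI1 peaks met 1673 new peaks, 58.8% [57.0 to 60.7], against 76.1% of kept peaks [73.7 to 78.3] and 64.4% of all. Control RING1B peaks met 1427 new peaks, 50.2% [48.3 to 52.0], against 74.8% of kept peaks [72.4 to 77.1] and 58.2% of all. Control RING1A peaks met 43.1% of new and 57.3% of kept peaks (47.7% of all). At least 1 of these 3 PRC1 subunits had a control peak on 1777 new peaks (62.5%), against 83.4% of kept peaks, and all 3 on 1049 new peaks (36.9%), against 52.4% of kept peaks. A PRC1 peak in control cells was thus frequent at new peaks, and more frequent still at kept ones.

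Control EED peaks met 11.7% of new and 12.8% of kept peaks (12.1% of all), and the interval of that difference included 0 [-3.37 to 0.907]. Control uH2A peaks met 9.29% of new and 12.8% of kept peaks with the rabbit antibody (10.4% of all) and 10.4% of new and 12.2% of kept peaks with the mouse antibody (11.0% of all). The interval of the mouse antibody's difference included 0 as well [-3.91 to 0.235], and that of the rabbit antibody did not [-5.70 to -1.55].

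The full control H3K27me3 list gave much lower shares than either class of knockdown peaks. Control BMI1 peaks met 5.83% of control H3K27me3 peaks, control RING1A peaks 9.07%, control RING1B peaks 3.61%, and control EED peaks 1.92%. For the control lists of the 3 PRC1 subunits, the shares of new peaks were thus nearer to those of kept peaks than to those of the control H3K27me3 list. Knockdown RING1B differed, with 16.6% of new, 61.2% of kept and 2.55% of control H3K27me3 peaks.

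**Figure D2:**
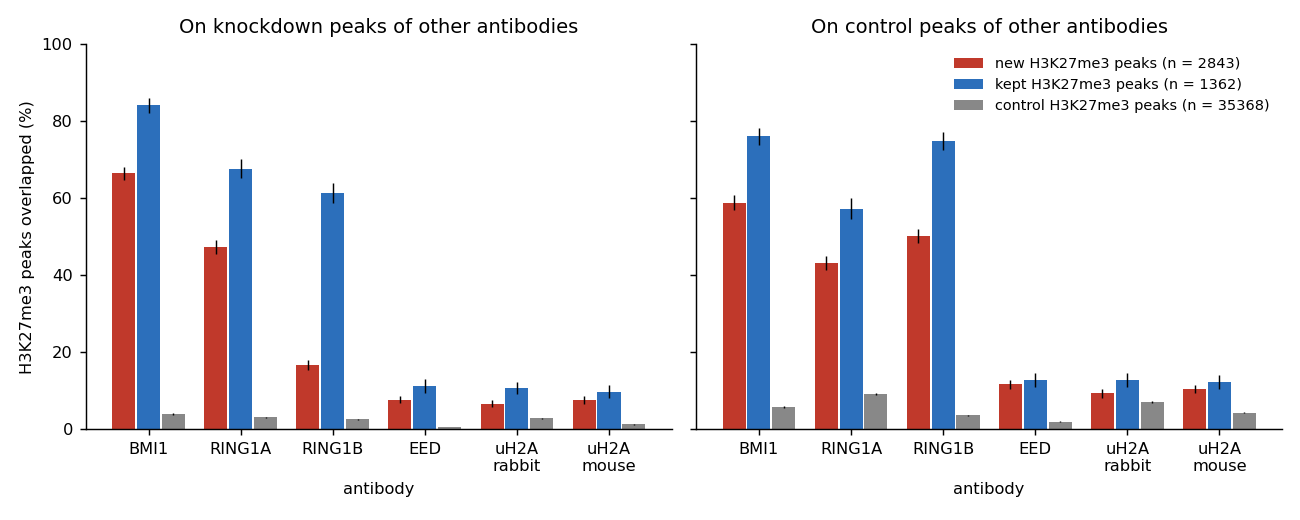
Share of H3K27me3 peaks (vertical axis, %) that shared at least 1 base with a peak of each other antibody, in knockdown cells (left) and control cells (right). Bars show new (red), kept (blue) and all control (grey) H3K27me3 peaks with 95% Clopper-Pearson intervals; the new and kept bars differ most for knockdown RING1B, 16.6% against 61.2%.

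Following each place through both cell lines separated RING1B from BMI1. BMI1 peaks were called in both cell lines on 1435 new peaks (50.5%), only in knockdown cells on 453 (15.9%), only in control cells on 238 (8.37%) and in neither on 717 (25.2%). RING1B peaks were called in both on 268 (9.43%), only in knockdown on 205 (7.21%), only in control on 1159 (40.8%) and in neither on 1211 (42.6%). RING1A peaks were called in both on 831 (29.2%) and only in control on 395 (13.9%). Of kept peaks, 70.3% had BMI1 in both cell lines, 50.4% had RING1B in both and 24.4% had RING1B only in control cells, and 44.5% had RING1A in both. Where a new peak had any RING1B, the most frequent pattern was thus a RING1B peak in control cells only, while on kept peaks it was a RING1B peak in both.

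The control peaks of each antibody were also followed from their own side. Of the control RING1B peaks under new H3K27me3 peaks, 21.2% [19.0 to 23.5] met a knockdown RING1B peak, against 69.3% [66.4 to 72.1] of those under kept peaks and 3.39% [2.76 to 4.13] of those under no knockdown H3K27me3 peak. For control BMI1 peaks the shares were 86.3% under new [84.5 to 88.0], 91.6% under kept [89.8 to 93.3] and 12.0% under no knockdown H3K27me3 peak. For RING1A they were 69.5% under new, 75.1% under kept and 1.84% under none. Over their whole control lists the shares were 20.7% for RING1B, 21.1% for BMI1 and 4.07% for RING1A. Each PRC1 subunit was thus called again at new H3K27me3 peaks more often than where knockdown cells had no H3K27me3 peak. Against the whole list, RING1B at new peaks was about level, while BMI1 and RING1A were called again more often. RING1B alone among the 3 was called again far less often at new than at kept peaks. The RING1B lists also differed in height as a whole, with a median of 30.0 in knockdown and 64.6 in control cells. The BMI1 lists had medians of 67.0 in knockdown and 68.9 in control cells, and the RING1A lists 53.0 and 59.0. Heights of different libraries are not on a common scale. The part of such a library-wide difference in the RING1B result was not tested.

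EED and uH2A peaks were followed in the same way. Of the control EED peaks under new H3K27me3 peaks, 51.4% [45.8 to 57.0] met a knockdown EED peak, against 65.3% under kept peaks and 3.80% under no knockdown H3K27me3 peak. The mouse uH2A antibody gave 70.2% under new, 74.7% under kept and 9.94% under none, and the rabbit antibody 55.7% under new, 59.0% under kept and 28.4% under none. Whole control lists gave 5.79% for EED, 10.7% for the mouse and 28.8% for the rabbit uH2A antibody.

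Most PRC1 peaks at new H3K27me3 peaks were tall for their own lists. On chromosomes 1 to 21 the BMI1 peak over a new peak had a median height of 81.3 in knockdown cells, 1.21 times the median of its list, and 129 in control cells, 1.87 times. For RING1A the median was 58.0 in knockdown cells, 1.09 times its list's, and 143 in control cells, 2.42 times. For RING1B it was 27.1 in knockdown cells, below its list's median at 0.905 times, and 79.1 in control cells, 1.22 times. Kept peaks lay under taller peaks still, with ratios of 1.74 for knockdown BMI1 and 1.56 for knockdown RING1B. Each ratio reads a height against its own list only.

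Among new peaks that met a knockdown BMI1 peak, the heights of the overlapping peaks had a Spearman correlation of 0.55 across 1625 new peaks, and 0.81 across 964 kept peaks. The values were 0.47 across 1170 new and 0.72 across 818 kept peaks for RING1A, 0.48 across 350 new and 0.89 across 636 kept peaks for RING1B, and 0.46 across 201 new and 0.66 across 137 kept peaks for EED. For uH2A they were -0.08 across 169 new and 0.55 across 137 kept peaks with the rabbit antibody, and 0.24 across 208 new and 0.42 across 130 kept peaks with the mouse antibody. These are descriptions across peaks that share the cells and may share the copy number of their place, which was not measured. BMI1, RING1A and RING1B also share the library set of H3K27me3, while EED and uH2A do not.

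Counted by antibody, 655 new peaks (23.0%) met no other antibody in knockdown cells, 753 (26.5%) met 1, 936 (32.9%) met 2, and 499 (17.6%) met 3 or more. Of kept peaks, 48.8% met 3 or more. All 6 were met by 10 new peaks (0.352%). The tallest of these was chr20:29653076-29653550, 475 bp long with a height of 173. BMI1 there had heights of 233 in knockdown and 394 in control cells, RING1A 122 in knockdown and 423 in control cells, and RING1B 40.6 in knockdown and 196 in control cells. These heights are again not on a common scale between libraries. Next came a neighbouring pair, chr7:157940151-157940675 and chr7:157939676-157940100, with heights of 151 and 144. Both lay under 1 knockdown BMI1 peak of height 444, so they are not separate places for BMI1.

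No peak of another antibody, in either cell line, was called on 513 new peaks, 18.0% [16.6 to 19.5], against 54 kept peaks, 3.96% [2.99 to 5.14]. These 513 were shorter and lower than the other 2330 new peaks, with a median length of 125 bp against 150 bp and a median height of 51.0 against 59.0. They were seldom isolated: the nearest peak of another antibody was at a median of 0.700 kb, and 94.9% had one within 10 kb. The tallest were chr2:91597001-91597325 (height 175), a 75-bp peak on chromosome 8 (height 169) and chr10:42357026-42357125 (height 159).

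Since longer peaks meet more peaks by their length alone, the shares were also compared within 4 length classes. Knockdown RING1B was lower on new than on kept peaks in each class, by 15.6 points at 75 to 100 bp [-22.1 to -10.2], 12.3 points at 125 to 150 bp [-19.1 to -6.38], 33.1 points at 175 to 225 bp [-39.1 to -26.8] and 47.8 points at 250 bp or more [-53.0 to -42.2]. Knockdown BMI1 differed less, by -6.24, -6.05, -9.57 and -3.61 points, and the intervals of the 2 shorter classes included 0. At 250 bp or more knockdown RING1A lay on 80.0% of 405 new and 73.3% of 643 kept peaks, the opposite direction [1.45 to 11.8]. In that class control EED also lay on more new than kept peaks, 25.2% against 15.4% [4.81 to 14.9]. So did knockdown uH2A with the mouse antibody, 17.0% against 11.0% [1.72 to 10.5], and control uH2A with the rabbit antibody, 21.2% against 14.3% [2.21 to 11.8], and with the mouse antibody, 21.2% against 12.8% [3.84 to 13.3]. Control RING1A stayed lower on new peaks by 4.63 points, with an interval that included 0 [-10.7 to 1.37]. The lower knockdown RING1B share of new peaks thus held at each length. The lower share of knockdown RING1A over all lengths did not hold among the longest peaks. The lower knockdown EED share held in no class, with differences of 1.11, -1.37, 0.554 and 2.89 points and intervals that each included 0. Knockdown uH2A was lower on new peaks beyond its interval only at 125 to 150 bp, by 5.81 points (rabbit) and 4.24 points (mouse).

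Distance to control H3K27me3 went with RING1B as well. Knockdown RING1B met 33.7% of the 493 new peaks within 1 kb of a control H3K27me3 peak, 20.6% of the 892 at 1 to 10 kb, 10.6% of the 907 at 10 to 100 kb and 4.90% of the 551 beyond 100 kb. The intervals of the nearest and farthest classes were [29.5 to 38.0] and [3.25 to 7.05], and they treat neighbouring peaks as independent. Some far peaks stood together in single stretches. At a median gap of 299 kb, chr19:36760176-36799900 held 43 new peaks, 0 of them on knockdown RING1B. For chr15:20847426-21326200 these values were 206 kb, 33 and 1, and for chrY:9183126-9374325 they were 652 kb, 29 and 2. Their part in the trend was not tested. Knockdown BMI1 ran the other way, from 58.2% within 1 kb [53.7 to 62.6] through 65.4% and 69.7% to 70.1% beyond 100 kb [66.0 to 73.9]. Control RING1B was about level, at 47.9%, 49.6%, 51.5% and 51.2%. New peaks far from control H3K27me3 thus lay on RING1B in control cells as often as near ones did, and seldom in knockdown cells. Median length moved along, at 175, 150, 125 and 125 bp, and median height at 63.0, 60.0, 56.0 and 54.4. Their part in the trend of RING1B was not tested.

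**Figure D3:**
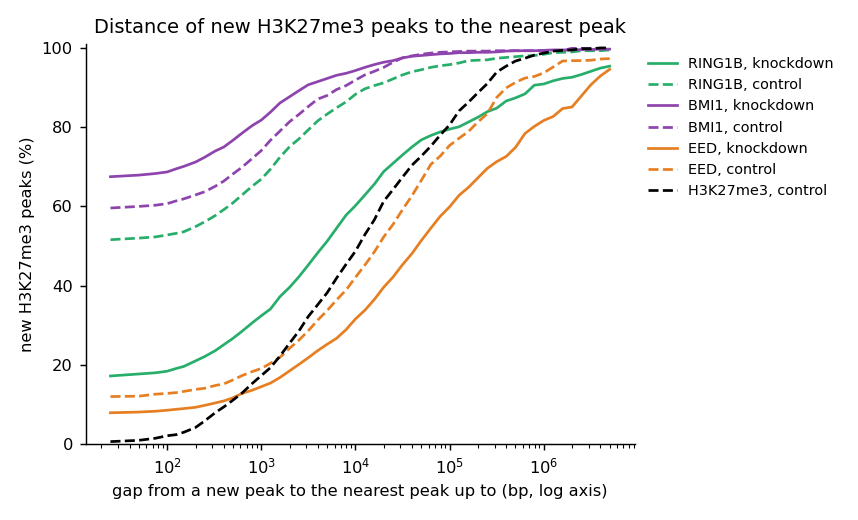
Cumulative share of the 2843 new H3K27me3 peaks (vertical axis, %) whose nearest peak of a list lies within a given gap in bp (log axis). Solid lines are knockdown lists and dashed lines control lists; 48.7% of new peaks had a control H3K27me3 peak within 10 kb, while knockdown BMI1 peaks were within 1 kb of 81.8% and knockdown RING1B peaks within 1 kb of 32.4%.

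New peaks were unevenly spread over the chromosomes. Chromosomes 1 (512), 14 (271), 15 (214), 21 (212) and Y (209) held 1418 of them, 49.9% [48.0 to 51.7], against 40.4% of kept peaks and 18.4% of control H3K27me3 peaks. Relative to the control list, the share of new peaks was 9.19 times as large on chromosome Y, 6.21 times on 21 and 3.26 times on 22, and 0.0657 times on 6 and 0.0856 times on 12. Chromosomes 14, 15, 21 and 22 set new peaks apart from kept ones: they held 30.0% of new [28.4 to 31.8] but 8.59% of kept [7.16 to 10.2] and 10.7% of control H3K27me3 peaks. On chromosome 15 alone there were 214 new and 10 kept peaks. These 4 chromosomes were grouped with the counts known, and many of their new peaks stood close together. The stretch chr14:19373776-20166525 held 179 of the 271 on chromosome 14, and chr15:20130526-20633300 held 104 of the 214 on chromosome 15. The BMI1 lists had a like share on these 4 chromosomes, 29.3% in knockdown and 30.4% in control cells. All 4 are acrocentric chromosomes, but chromosome 13, which is acrocentric too, had 8 new peaks (0.281% of new against 1.64% of control H3K27me3 peaks) and 0 kept peaks.

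**Figure D4:**
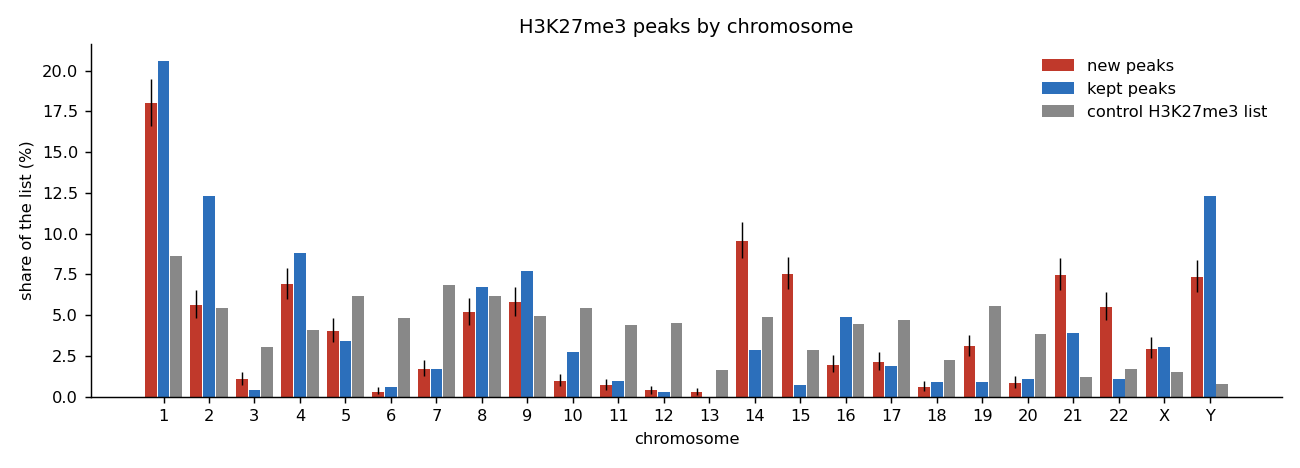
Share of new (red), kept (blue) and control (grey) H3K27me3 peaks on each chromosome, in % of each list, with 95% Clopper-Pearson intervals on the new peaks. New peaks stand above both other lists on chromosomes 14, 15, 21 and 22, and kept peaks stand higher on 2 and Y.

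New peaks were also clustered along the chromosomes. They fell in 563 windows of 100 kb, and 54 of these held more than 50% of them. Windows with 10 or more new peaks numbered 82 and held 1765 (62.1%). The other lists gave like shares by this measure, 62.0% of kept and 64.9% of control H3K27me3 peaks in windows with 10 or more of their own. The 20 fullest windows held 26.8% of new, 43.0% of kept and 4.61% of control H3K27me3 peaks. The densest held 61 new peaks, on chromosome 8, followed by chr21:11100001-11200000 with 57, chr1:145300001-145400000 with 48, chr15:20400001-20500000 with 47 and chr1:143400001-143500000 with 44. Clusters and single peaks differed in the antibodies they met: knockdown RING1A lay on 52.9% of new peaks in windows of 10 or more and on 23.2% of the 271 that were alone in their window. Knockdown RING1B did so on 21.0% and 5.54%, while control uH2A (rabbit antibody) lay on 7.08% and 22.5% and control EED on 10.5% and 20.3%. Control RING1B lay on 55.0% of clustered new peaks and on 32.1% of those alone in their window. New peaks alone in their window thus met PRC1 in knockdown cells, and RING1B in control cells, less often than clustered ones. They met control EED and rabbit uH2A more often. Rabbit uH2A was more frequent on them in knockdown cells too, 16.6% against 4.93%, while knockdown EED was level, 8.12% against 8.27%. For control mouse uH2A the intervals overlapped, 13.3% [9.48 to 17.9] against 9.97% [8.61 to 11.5]. Control BMI1 lay on 64.6% of lone and 57.9% of clustered new peaks, and control RING1A on 45.4% and 42.0%, also with overlapping intervals.

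Joined into runs in which neighbours were at most 100 kb apart, the new peaks formed 400 runs, of which 216 held 1 peak. The 35 runs with 20 or more new peaks held 1796 of them (63.2%) in 7.73 Mb. The same stretches held 48.9% of kept peaks, 2.53% of control H3K27me3 peaks, and 42.3% of knockdown and 13.8% of control BMI1 peaks. For RING1B they held 56.0% of knockdown and 45.4% of control peaks, and for EED 19.5% of knockdown and 2.61% of control peaks. The uH2A lists had at most 4.02% there. For RING1A they held 49.6% of knockdown and 4.01% of control peaks. The runs were drawn from the new peaks themselves, so the 63.2% was fixed in part by that choice. Whether the shares of the other lists are high or low for the sequence covered was not tested. The PRC1 subunits differed among themselves in control cells.

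The largest run, chr14:19373776-20166525, spanned 793 kb and held 179 new peaks, 1 kept peak and 2 control H3K27me3 peaks. BMI1 had 263 peaks there in knockdown and 304 in control cells, and RING1A 197 in knockdown and 234 in control cells. RING1B had 11 in knockdown and 238 in control cells. New peaks were chosen to share no base with a control H3K27me3 peak, but this does not keep control peaks out of a run. The run chr2:91596776-92004750, for example, held 143. Of the 3 PRC1 subunits, RING1B was the one with few peaks there in knockdown cells.

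Similar patterns appeared in other runs. On chr15:20130526-20633300 there were 104 new and 2 kept peaks, 5 control H3K27me3 peaks, and RING1B peaks numbering 14 in knockdown and 168 in control cells. A 39.7-kb run, chr19:36760176-36799900, held 43 new peaks, no kept peak and no control H3K27me3 peak. Of these 43, 40 lay on knockdown BMI1, 43 on control BMI1 and 43 on control RING1B. RING1B had no peak there in knockdown cells and 62 in control cells. Nearby, chr19:37760276-37794400 held 41 new peaks, all on BMI1 peaks of both cell lines. RING1B had 14 peaks there in knockdown and 44 in control cells.

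Other runs did not share the loss of RING1B peaks. On chrY:58820251-59032700 there were 64 new and 123 kept peaks, and RING1B had 179 peaks in knockdown and 91 in control cells. On chr4:49096551-49337100 there were 84 new and 77 kept peaks, with 108 RING1B peaks in knockdown and 133 in control cells. A run of 114 kb on chromosome 8 held 97 new and 41 kept peaks, with 66 RING1B peaks in knockdown and 74 in control cells. It held no EED or uH2A peak in either cell line. Runs with many and with few control H3K27me3 peaks were found among those between these extremes. On chr2:91596776-92004750, with 69 new and 79 kept peaks and 143 control H3K27me3 peaks, RING1B had 36 peaks in knockdown and 132 in control cells. On chr21:11021776-11184600, with 88 new and 4 kept peaks and 4 control H3K27me3 peaks, it had 48 in knockdown and 118 in control cells. Runs were not compared by a test.

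**Figure D5:**
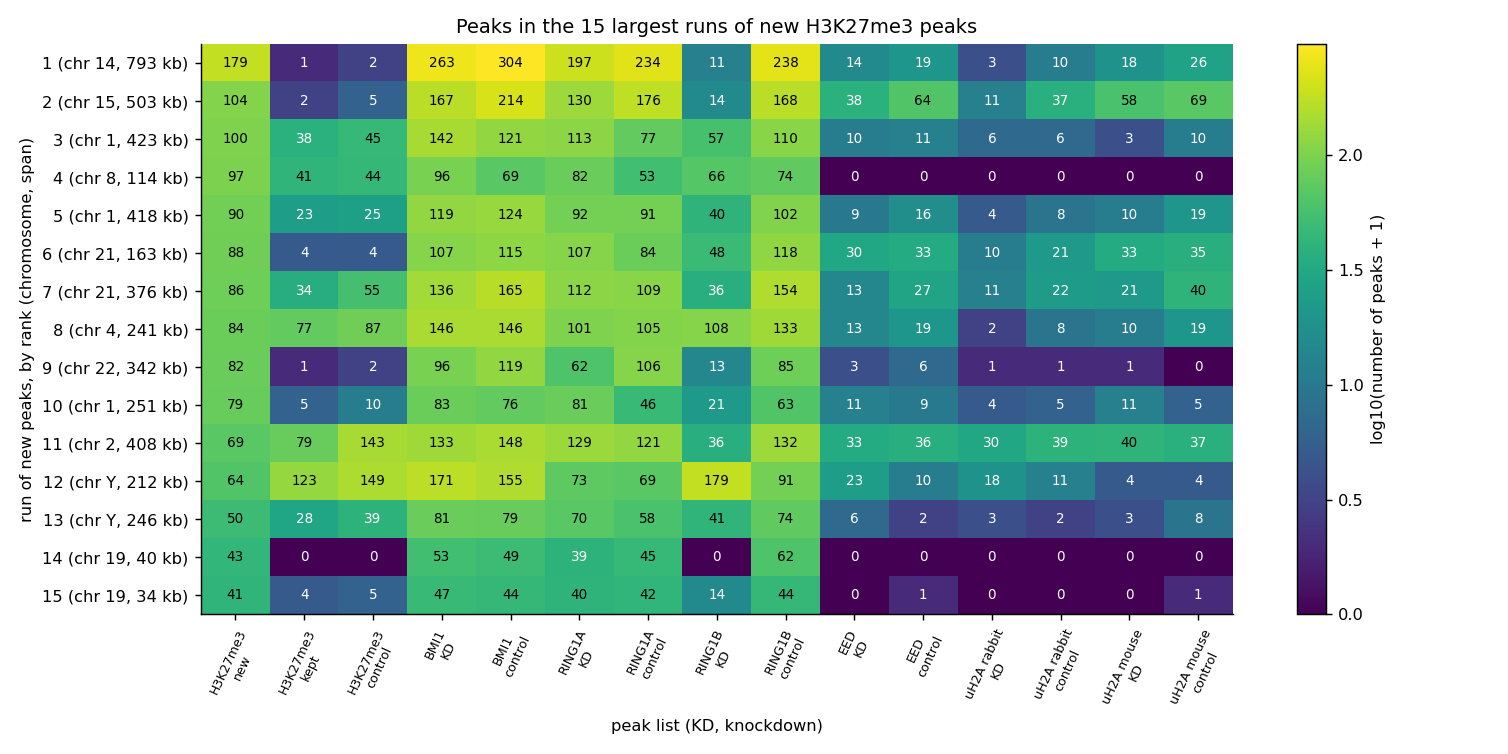
Number of peaks of each list in the 15 largest runs of new H3K27me3 peaks; rows are runs by rank with chromosome and span, columns are lists with knockdown (KD) left of control, and colour is log10(number of peaks + 1). In the largest run, on chromosome 14, RING1B had 11 peaks in knockdown and 238 in control cells, while BMI1 had 263 in knockdown and 304 in control cells.

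Several of these runs border centromeres or lie at the first assembled sequence of an acrocentric long arm, where satellite and segmentally duplicated sequence is common. Reads from such copies can be assigned to more than one place, and how the alignment treated them is not stated in the sources used here. Its part in the runs was not tested. New peaks in a run may share sequence, and are then not separate observations.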

How the data were processed

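ChIP-seq of the knockdown and Scramble DU145 cells was read out as 1 deposited peak list per library, 14 in all. Reads were 40 nucleotides long, per the labels' protocols. The submitters' processing notes name Bowtie and hg19. The lists carry the name of the HPeak caller. The sources used here do not state Bowtie's version and settings, the caller's settings or whether an input or IgG library entered the calling. Each deposited list gives a peak's position, its length in bp, the height as a read signal, and a further score whose scale is not stated and which was not used to draw any result. The authors' normalization of height is not stated, and depth is unknown. All 14 lists were used. Chromosomes written 23 and 24 were read as X and Y.

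Overlap required at least 1 shared bp, and a gap is the number of bp between facing ends. Shares were compared between new and kept peaks with Clopper-Pearson and Newcombe intervals at 95%. Named regions were the 5 tallest, the 5 longest, the 5 on most other antibodies in knockdown cells, the 5 tallest on none, the 5 tallest at least 1 Mb from control H3K27me3, the 5 densest windows of 100 kb, and 2 on each side of the rule. The tallest peaks were picked among those with a listed height. Runs were described after their values were seen. The members, lists and classes were chosen with earlier results of these data known. Overlap counting was tested on simulated intervals. Python 3.11.15, numpy 2.4.6, pandas 2.3.3, scipy 1.17.1 and matplotlib 3.10.9 were used. No hg19 sequence or annotation was used, so no gene is named. The alternatives changed the overlap, gap, height, length, chromosomes, merging and high-signal windows.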

Additional observations from a re-analysis of the deposited data

How the results depend on the processing

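Of 53 recomputed values, 30 moved: a share by more than its counting interval, or the number of new peaks by more than 1.5 times. The other 23 did not pass these limits. No paired analysis was possible because each group has 1 library. The number of new peaks, 2843, fell to 1413 among peaks at or above the median height of each list, to 1669 after merging peaks within 1000 bp, and to 1479 among peaks of at least the median length. The share on knockdown BMI1, 66.4%, became 64.4% with an overlap of 50%, 71.9% at the median height, 69.1% merged, 78.8% at the median length and 62.8% outside windows with 10 or more new peaks, an alternative chosen after seeing the data. The share on control BMI1, 58.8%, became 61.0% over 1000 bp from control peaks, 56.1% with an overlap of 50%, 61.4% with heights above 0 (chromosomes 1 to 21), 63.6% at the median height, 63.0% merged, 61.5% on autosomes and 63.5% at the median length. The share on any other antibody in knockdown cells, 77.0%, became 75.0% with an overlap of 50%, 80.4% at the median height, 88.6% at the median length and 73.0% outside dense windows. The share on none in either line, 18.0%, became 19.8% with an overlap of 50%, 16.1% merged and 9.80% at the median length. The share within 10 kb of control H3K27me3, 48.7%, moved under the most alternatives, with 38.0% over 1000 bp from control peaks, 51.8% with an overlap of 50%, 41.6% at the median height, 35.4% merged, 46.7% on autosomes, 46.1% outside high-signal windows, 55.4% at the median length and 33.6% outside dense windows. Fewer or longer peaks enter under the height, length and merging alternatives by construction. The alternative over 1000 bp from control peaks drops the 493 new peaks within 1 kb, all within 10 kb. Its lower share within 10 kb is thus also set by construction. Otherwise the cause was not tested. With unknown depth and 1 library a group, a place with no called peak is not shown to lack the mark.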

Other observations

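Seen from the other antibodies, new H3K27me3 peaks lay on part of all the PRC1 peaks called in knockdown cells. They were met by 1790 of 6257 knockdown BMI1 peaks (28.6%), 1282 of 4072 RING1A peaks (31.5%) and 493 of 1739 RING1B peaks (28.3%). Of knockdown EED peaks, 212 of 1372 met one (15.5%), and of the knockdown uH2A peaks 1.60% with the rabbit and 2.81% with the mouse antibody. Of the control RING1B peaks, 1340 of 5155 (26.0%) lay where knockdown cells had a new H3K27me3 peak. So did 1504 of 20775 control BMI1 (7.24%) and 1071 of 56011 control RING1A peaks (1.91%). The counts were thus much closer than the shares, which also depend on the number of peaks in each list. Kept H3K27me3 peaks, fewer in number, were met by 1166 knockdown BMI1, 894 knockdown RING1A and 897 knockdown RING1B peaks.

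By cell line, 518 new peaks (18.2%) met another antibody in knockdown cells and none in control cells, and 142 (4.99%) met another antibody in control cells only, against 11.9% and 2.86% of kept peaks. The share of new peaks on knockdown BMI1 ranged by chromosome from 36.9% of 84 on X to 93.2% of 88 on 19. Windows of 100 kb with peaks over 10 times their list's median height for at least 2 antibodies other than H3K27me3, taken with their neighbours, numbered 106 and held 12.7% of new peaks.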
